A study of Rattus norvegicus with 8 samples.

Results

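The ubiquitin enzymes, ligases and deubiquitinases were taken as the genes whose platform symbol begins with Ube2 or Ube3, or with Uba, Usp, Rnf, Fbxo, Fbxl or Trim and a digit, together with Uspl1. They came to 160 of 10411 named genes, read by 201 probe sets on a rat oligonucleotide array (Affymetrix RAE230A), and each gene was read on its brightest probe set. Symbols beginning with Ubap or Ubac were left out, as were 5 probe sets annotated to several genes with a symbol of these families among them. The study used primary cultures of hepatocytes, the main liver cell type, from 4 rats. Cadmium chloride (4 µM, 3 h) was given to 1 culture of each rat, the matching culture had only medium, and the 8 RNA samples were hybridised to 1 array each. No strain, sex, age or genetic change of the rats is given in the sources used here, and the cadmium and control cultures of a number come from the same animal.

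Ubiquitin is a small protein that cells attach to other proteins, most often to mark them for the proteasome. An E1 enzyme activates it, an E2 enzyme carries it, and an E3 ligase selects the substrate, which may be a HECT protein, a RING finger protein (the RNF and TRIM families) or a cullin complex that holds its substrate through an F-box protein (FBXO and FBXL). Deubiquitinases, of which the USP family is the largest, remove the mark. Parallel enzymes of the same families attach and remove the ubiquitin-like proteins SUMO, NEDD8 and ISG15. Cadmium binds protein thiols, and heat shock and proteasome genes are known to respond to it.

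The cultures responded to cadmium. Hspa1a, the inducible HSP70 chaperone, had a mean signal of 24762 ± 2726 after cadmium and 416 ± 111 in controls (SD, n = 4 each), with a log2 change of 5.92 ± 0.17 (SE; adjusted p = 2.81e-07), and the log2 changes of Hmox1 and Egr1 were 4.93 and 5.66. Hepatocyte markers (9 of the 10 listed had a named probe set) had a summed signal between 110420 and 124230 after cadmium and between 105220 and 119110 in controls. None of the 5 endothelial markers read here was above the filter on dim probe sets (signal of 118), and their sums of 54.7 to 183 after cadmium and 130.4 to 249 in controls lie near the floor of the array and allow no comparison. Kupffer cell and leukocyte markers summed to 2820.2 to 4819 after cadmium and to 3043 to 4515 in controls, mostly from Cd68 and Cd74, with Ptprc near the floor of the array in both groups. The other marker sums and the ratios of 3′ to 5′ control probe sets had exact two-sided permutation p values of 0.286 to 0.857 over the 70 assignments of arrays, and 0.375 to 0.75 over the 16 sign flips within rats. In such bulk RNA, fewer cells of a type and less RNA per cell cannot be told apart. The median signal of an array was 179.7 to 186 after cadmium and 192 to 197 in controls (exact two-sided permutation p = 0.0286, the smallest the 70 assignments allow). It was lower after cadmium in 4 of 4 rats, for which the 16 sign flips within rats give an exact p of 0.125, the smallest they allow. Cadmium and control arrays ran on different modules of the fluidics station, so module and treatment cannot be told apart.

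RefSeq promoter sequences of assembly GRCr8, from 250 bases before to 50 bases after the transcription start, were held for 131 of the 160 genes. Those of Uspl1 and Fbxo30, which had the largest rises past the test, and of Rnf169, which had the largest fall, are shown 5′ to 3′ on the strand of the gene, with the 50 bases from the start onward in capitals. They lie at chr12:10886604-10886903 (minus strand), chr1:7475589-7475888 (plus strand) and chr1:163724105-163724404 (minus strand).
Uspl1: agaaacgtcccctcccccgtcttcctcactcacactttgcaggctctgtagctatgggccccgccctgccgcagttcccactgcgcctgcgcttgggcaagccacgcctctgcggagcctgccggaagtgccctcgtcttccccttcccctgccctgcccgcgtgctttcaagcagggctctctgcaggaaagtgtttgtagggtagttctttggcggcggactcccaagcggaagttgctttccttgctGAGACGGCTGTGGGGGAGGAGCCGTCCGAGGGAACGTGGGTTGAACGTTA
Fbxo30: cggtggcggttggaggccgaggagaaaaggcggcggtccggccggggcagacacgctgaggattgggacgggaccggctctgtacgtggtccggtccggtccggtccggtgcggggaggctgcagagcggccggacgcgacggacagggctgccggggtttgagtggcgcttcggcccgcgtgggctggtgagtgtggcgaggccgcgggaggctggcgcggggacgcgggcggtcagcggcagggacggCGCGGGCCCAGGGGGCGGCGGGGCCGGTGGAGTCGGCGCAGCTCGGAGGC
Rnf169: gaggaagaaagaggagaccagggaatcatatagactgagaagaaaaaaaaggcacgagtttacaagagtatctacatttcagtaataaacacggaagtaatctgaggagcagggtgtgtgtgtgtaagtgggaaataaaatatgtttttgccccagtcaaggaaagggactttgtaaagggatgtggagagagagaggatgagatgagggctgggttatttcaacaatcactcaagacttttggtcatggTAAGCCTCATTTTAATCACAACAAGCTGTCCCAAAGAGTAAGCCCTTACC

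The windows differ in base composition. G and C made up 77.3% of the Fbxo30 window, 63% of that of Uspl1 and 41.7% of that of Rnf169, with 44, 20 and 2 CpG pairs. The median over the 131 members was 62.3% and 24 CpG pairs, against 52.3% and 7 over all 27457 windows of that length. Both strands were searched for the letters of heat shock elements (GAANNTTC or TTCNNGAA for 2 units; 1 more alternating GAA or TTC unit, NN apart, for 3 units, so that a 3-unit match also holds a 2-unit match), the cAMP and ATF element (TGACGTCA), the AP-1 site (TGANTCA) and the antioxidant element core (TGACNNNGC). None of these motifs occurs in the Uspl1, Fbxo30 or Rnf169 window. The 2-unit heat shock letters were in 13 of 131 member windows (9.92%) and in 15.4% of all windows. The 3-unit letters were in 1 (0.763% against 0.736%), the antioxidant core in 22 (16.8% against 12.2%), the AP-1 letters in 8 (6.11% against 7.33%) and the cAMP and ATF letters in 3 (2.29% against 1.91%). Among the genes that changed, the 2-unit letters stood at 64 bases before the start in Rnf146 (GAACTTTC), 133 in Fbxo38 (TTCAGGAA) and 243 in Usp40 (TTCTAGAA), and the antioxidant core at 24 in Uba6 (TGACGTCGC) and 165 in Rnf14 (TGACAAAGC). No promoter sequence was held for Rnf19a, which also changed, so it was not searched. A match is a run of letters and was not measured as a bound site.

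After 3 h of cadmium, 2 genes of the system rose more than 3-fold: Uspl1, which encodes a protease of the USP fold that acts on SUMO in human cells, and Fbxo30, which encodes a substrate receptor of the SCF ligases and had dim control signals. Other changes past the test were smaller than 2-fold. The RING genes Rnf2, Rnf19a and Rnf146, the F-box gene Fbxo38 and the NEDD8 carrier gene Ube2f rose, while the ligase genes Rnf169 and Rnf14, the E1 gene Uba6, the F-box gene Fbxo9 and the deubiquitinase gene Usp40 fell. Most of the system moved little: 121 of the 133 genes tested had an absolute log2 change under 0.5 (91.0%, against 91.8% of all tested genes).

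The test was limma on log2(signal + 1) with the rat as a block, two-sided, with Benjamini-Hochberg adjustment over 9519 probe sets and a threshold of 0.05. A gene was tested if its probe set lay above the dimmest 40% of the array by its mean over all 8 arrays, which 133 of the 160 genes did. Of these, 7 rose and 5 fell (9.02%). Of all 7099 named genes tested, 4.94% passed, and of all 9519 probe sets 5.15%. An absolute log2 change of at least 1 was reached by 3 members, Uspl1, Fbxo30 and Rnf185, the last without passing (2.26%, against 1.68% of all genes). Rises made up 5.26% of the members against 2.73% of all genes, and falls 3.76% against 2.21%. In this fit the share called was thus above the background in both directions, with no test of that difference. Not every setting kept this. Without the filter on dim probe sets, the share of members that rose was below that of all genes. Without a variance trend, the share of members that fell was below that of all genes. After quantile normalization 6 members rose and 2 fell, and after centring arrays on their medians 8 rose and 2 fell, while over all genes rises made up 55.3% of calls as reported and 76.7% after median centring. The median log2 change of the members was -0.073, against -0.060 over all tested genes. At an unadjusted p under 0.05 there were 33 members (24.8%), against 20.4% of all genes. The groups did not overlap for 19 members (14.3%), against 11.6% of all genes. A signal higher after cadmium in 4 of 4 rats was seen for 16 members (background 9.62%), and a lower one for 25 (background 20.0%). Without the replicate block for the rat, 4 members rose (background 2.04%) and 2 fell (background 1.31%).

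**Figure D1:**
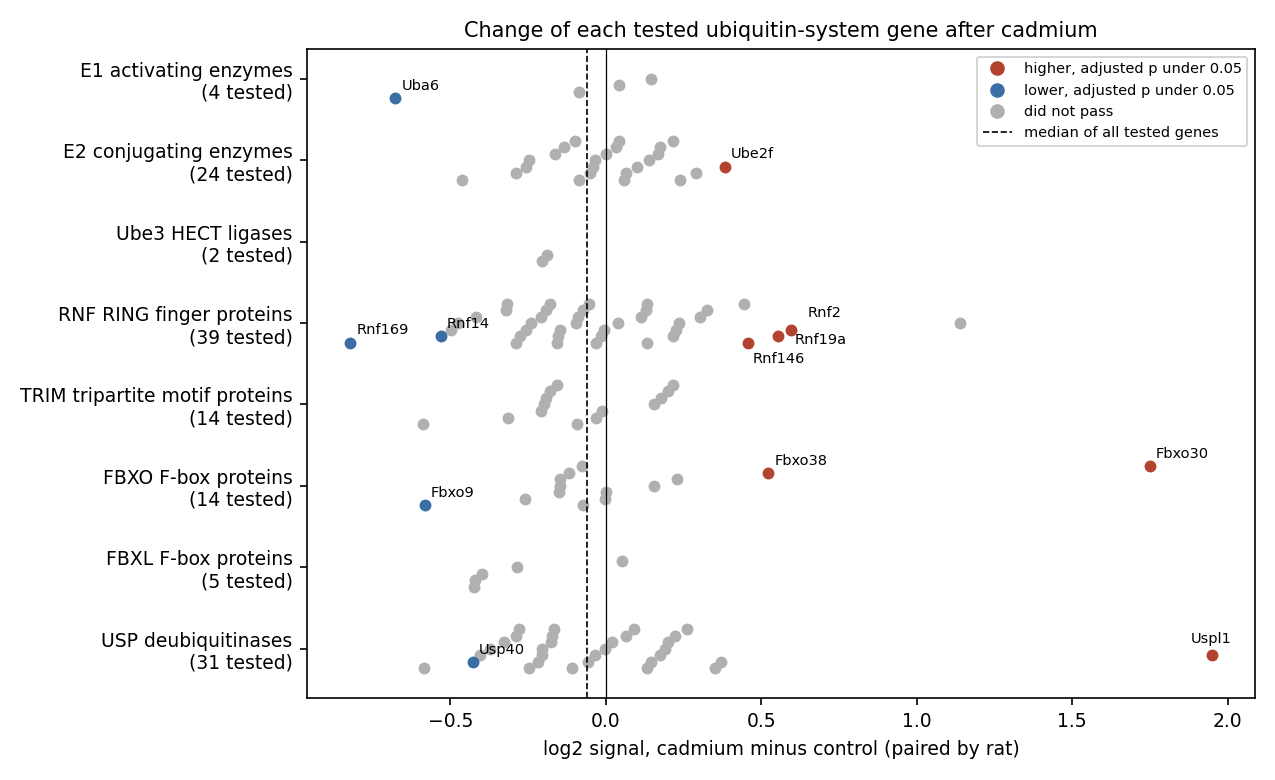
Log2 signal difference, cadmium minus control, of each of the 133 tested genes (points), grouped by family from top to bottom; red points rose, blue points fell and grey points did not pass at an adjusted p of 0.05, and the dashed line is the median of all tested genes at -0.060. Uspl1 at 1.95 and Fbxo30 at 1.75 stand apart from the other genes that passed.

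Among the 4 E1 genes, which start the cascade, Uba6 fell and the other 3 did not pass. Uba6 encodes the second E1 for ubiquitin, which also activates FAT10. Its signals were 411, 267, 281 and 313 after cadmium in rats 1 to 4, against 561, 636, 373 and 476 in their controls. All cadmium cultures were lower than their own controls, but the groups overlapped, because the control of rat 3 lay below the treated culture of rat 1. The difference was largest in rat 2, at -1.25, and the mean was a log2 change of -0.68 ± 0.16 (SE; adjusted p = 0.0452). The call ended without the replicate block (adjusted p = 0.0893), after quantile normalization (0.0737) and median centring (0.068), and without rat 1, 2 or 3 (0.102, 0.147 and 0.0908). Uba1, the main ubiquitin E1, averaged 3070.1 ± 226 after cadmium and 3253 ± 38.4 in controls (SD, n = 4 each; log2 change -0.086, adjusted p = 0.591). Uba2, a subunit of the SUMO E1, had a log2 change of 0.043 ± 0.12 (SE; adjusted p = 0.882), and Uba3, a subunit of the NEDD8 E1, had a log2 change of 0.15 ± 0.10 (SE; adjusted p = 0.478).

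Of 27 E2 genes, 24 were tested and 1 passed (4.17%, against 4.94% of all tested genes). Ube2f encodes a carrier of NEDD8, the modifier that activates cullin ligases. It gave signals of 2056, 1917, 1919 and 2024 after cadmium in rats 1 to 4, against 1718, 1298, 1573 and 1512 in their controls. Every cadmium value lay above every control value, by a factor of 1.30 on average (log2 change 0.38 ± 0.09, SE; adjusted p = 0.0441). That call was lost without the replicate block (adjusted p = 0.0809), after quantile normalization (0.0558) and without rat 1, 2 or 3 (0.108, 0.19 and 0.139). The other NEDD8 carrier, Ube2m, had a log2 change of 0.17 (adjusted p = 0.399), and the modifier gene Nedd8 one of 0.00361 (adjusted p = 0.985). Both were named after their values were seen.

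The E2 genes named for their high mean signal were Ube2l3, a carrier used by HECT and RING-between-RING ligases, and Ube2k, which builds degradative ubiquitin chains. Signals of different probe sets are not on 1 scale and give no order of RNA levels between genes. Ube2l3 averaged 3830.4 ± 396 after cadmium and 3473 ± 272 in controls (adjusted p = 0.475; SD, n = 4 each, limma), and Ube2k averaged 3006 ± 412 after cadmium and 2644 ± 56.2 in controls (adjusted p = 0.326). Neither passed. Ube2q2 was closest to a fall among E2 genes, with signals of 284, 257, 307 and 300.4 after cadmium in rats 1 to 4, against 416, 359.8, 443 and 368 in their controls. Those groups did not overlap, and the log2 change of -0.46 ± 0.12 (SE; adjusted p = 0.0662) missed the threshold. The E2 genes that did not pass were Ube2a, Ube2b, Ube2c, Ube2h, Ube2k, Ube2m, Ube2n, Ube2o, Ube2s, Ube2z, Ube2d2, Ube2e2, Ube2e3, Ube2g1, Ube2g2, Ube2j1, Ube2j2, Ube2l3, Ube2l6, Ube2q1, Ube2q2, Ube2r2 and Ube2v2, with log2 changes of -0.46 to 0.29. They include the ERAD carriers Ube2g2, Ube2j1 and Ube2j2, named after their values were seen, whose log2 changes were 0.22, 0.29 and 0.24. Their limma adjusted p values were 0.454, 0.109 and 0.415, and their signals were higher after cadmium in 3, 4 and 2 of 4 rats.

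Neither of the 2 HECT ligase genes of the Ube3 group that were tested passed (limma; 0 at an unadjusted p under 0.05, and 0 without the replicate block). Of all tested genes 4.94% passed, and 2 genes are too few to compare with that share. Ube3c, which acts at the proteasome, averaged 963 ± 35.3 after cadmium and 1107 ± 179 in controls (limma adjusted p = 0.346), and Ube3b averaged 275 ± 67.5 after cadmium and 313 ± 50.02 in controls (adjusted p = 0.449). Ube3a was too dim to be tested.

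RNF genes formed the largest family, with 39 of 44 tested, 3 higher and 2 lower. That is 12.8% called, against 4.94% of all tested genes, and the difference was not tested. Rnf2 (RING1B), the catalytic ligase of Polycomb repressive complex 1 that marks histone H2A, had signals of 354, 351, 285 and 344 after cadmium in rats 1 to 4, against 240.4, 238, 198 and 205 in their controls. The groups were apart in every comparison of arrays, and the rise was close in size between rats, from 0.53 to 0.74 on the log2 scale (log2 change 0.60 ± 0.13, SE; adjusted p = 0.0363). Rnf19a (dorfin), a RING-between-RING ligase, gave 925, 1017, 967 and 1275 after cadmium in rats 1 to 4, against 802, 586, 712 and 742 in their controls. Its groups did not overlap either, although rat 1 moved by only 0.20 (log2 change 0.55 ± 0.12, SE; adjusted p = 0.0375). Rnf146, a ligase that recognises poly-ADP-ribosylated proteins such as axin, had 918, 739.9, 659.8 and 864 after cadmium in rats 1 to 4, against 699, 515, 535 and 564 in their controls. Each culture rose over its own control, but the control of rat 1 lay above the treated culture of rat 3 (log2 change 0.46 ± 0.10, SE; adjusted p = 0.0391). Leaving out rats 1 to 4 in turn gave adjusted p values of 0.122, 0.129, 0.116 and 0.0612 for Rnf2, 0.0425, 0.17, 0.111 and 0.0544 for Rnf19a and 0.122, 0.158, 0.107 and 0.0577 for Rnf146. Without the replicate block the adjusted p was 0.0553 for Rnf19a and 0.127 for Rnf146.

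Rnf169, whose product is recruited to DNA double-strand breaks, had the largest fall past the test. Its signals were 219, 249, 209 and 197 after cadmium in rats 1 to 4, against 352, 373, 426 and 397 in their controls. All 4 cadmium values lay below all controls, a 1.77-fold lower level (log2 change -0.82 ± 0.14, SE; adjusted p = 0.0134). Rnf14, a RING-between-RING ligase first described as an androgen receptor coactivator, had 1447, 1252, 1167 and 1395 after cadmium in rats 1 to 4, against 2189.8, 2024, 1632 and 1781 in their controls. These groups too were separate, with a log2 change of -0.53 ± 0.09 (SE; adjusted p = 0.0136). Without rats 1 to 4 in turn the adjusted p was 0.0451, 0.0457, 0.0765 and 0.0204 for Rnf169 and 0.0728, 0.0896, 0.0679 and 0.00381 for Rnf14, so the Rnf169 call ended without rat 3 and that of Rnf14 without rat 1, 2 or 3.

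Rnf185, a ligase of the endoplasmic reticulum, had the largest positive log2 change of the RNF family and did not pass. Its signals were 351, 442, 322 and 353 after cadmium in rats 1 to 4, against 348, 183, 257 and 44.8 in their controls. The control of rat 4 was far dimmer than the other controls, rat 1 showed almost no difference, and the groups overlapped (log2 change 1.14 ± 0.41, SE; adjusted p = 0.163). Named for their high mean signal were Rnf13, a membrane ligase of endosomes, at 2974 ± 224 after cadmium and 2774 ± 447 in controls, and Rnf144b, at 2084 ± 285 after cadmium and 2118 ± 406 in controls (SD; limma adjusted p = 0.523 and 0.949). The RNF genes that did not pass were Rnf4, Rnf5, Rnf7, Rnf8, Rnf10, Rnf13, Rnf25, Rnf26, Rnf34, Rnf39, Rnf44, Rnf103, Rnf111, Rnf114, Rnf115, Rnf123, Rnf128, Rnf130, Rnf138, Rnf139, Rnf149, Rnf157, Rnf166, Rnf167, Rnf170, Rnf181, Rnf185, Rnf187, Rnf207, Rnf213, Rnf216, Rnf220, Rnf11l2 and Rnf144b, and their log2 changes were -0.50 to 1.14. Rnf4, the ligase that reads SUMO chains, had a log2 change of 0.32 ± 0.09 (SE; adjusted p = 0.0688), named after its value was seen.

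In the TRIM family, 14 of 22 genes were bright enough to test and none passed in either direction (limma, with or without the replicate block). Since 4.94% of all tested genes passed, no calls among 14 genes do not set the family apart. By limma's unadjusted p under 0.05 there were 2 (14.3%, against 20.4% of all genes). The nearest to passing were falls. Trim8 had signals of 159, 194, 200.1 and 148 after cadmium in rats 1 to 4, against 245, 244, 293 and 269 in their controls. The groups did not overlap, and the log2 change of -0.59 ± 0.16 (SE; adjusted p = 0.0731) missed the threshold. Trim47 averaged 1262 ± 207 after cadmium and 1564 ± 196 in controls (log2 change -0.32, adjusted p = 0.118). Trim28 (KAP1), the corepressor of KRAB zinc finger proteins, averaged 1891 ± 169 after cadmium and 2168 ± 119 in controls (log2 change -0.20, adjusted p = 0.271). The genes tested were Trim2, Trim3, Trim5, Trim8, Trim11, Trim24, Trim27, Trim28, Trim32, Trim33, Trim35, Trim37, Trim41 and Trim47, with log2 changes of -0.59 to 0.22.

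F-box proteins hold the substrate in SCF ligases. Of 14 FBXO genes tested among 18, 2 rose and 1 fell (21.4%, against 4.94% of all tested genes, a difference that was not tested). Fbxo30, which is known as an atrophy-linked ligase subunit in mouse muscle, had signals of 385, 326, 315 and 469 after cadmium in rats 1 to 4, against 139, 94.9, 110.2 and 97 in their controls. The lowest cadmium value was more than 2-fold the highest control, and the mean was 3.36-fold higher (log2 change 1.75 ± 0.18, SE; adjusted p = 0.000931). It passed without any 1 rat (adjusted p up to 0.0116, without rat 2) and without the replicate block (0.00036). In 3 of 4 control cultures the signal was under 118, the value at which the filter on dim probe sets fell. The control mean of 110.3 lies under it too, so the gene passed the filter only through its cadmium arrays, and the size of its fold depends on signals in the dim range.

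Fbxo38, a receptor that directs degradation of PD-1 in T cells, had 404, 453, 456 and 446 after cadmium in rats 1 to 4, against 337, 289, 310.2 and 288 in their controls. Its groups did not overlap, and the smallest rise was in rat 1 (log2 change 0.52 ± 0.12, SE; adjusted p = 0.0485). Fbxo9, an SCF receptor described in human cells for the TEL2 and TTI1 proteins, had 529.5, 482, 428 and 366 after cadmium in rats 1 to 4, against 807, 659, 522 and 728 in their controls. Each treated culture was lower than its control, and the groups overlapped only through the control of rat 3 and the treated culture of rat 1 (log2 change -0.58 ± 0.13, SE; adjusted p = 0.0414). Leaving out rats 1 to 4 in turn gave adjusted p values of 0.0788, 0.181, 0.175 and 0.0736 for Fbxo38 and 0.144, 0.126, 0.0709 and 0.0561 for Fbxo9, all above the threshold. The Fbxo9 call also ended without the replicate block (adjusted p = 0.0855), after quantile normalization (0.0593) and after median centring (0.0729).

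The FBXO genes named for their high mean signal did not pass. Fbxo7, which takes part in mitophagy, averaged 2183 ± 436 after cadmium and 1946 ± 289.9 in controls, and Fbxo6, which binds N-glycans of misfolded glycoproteins, averaged 1948 ± 325 after cadmium and 2035 ± 127 in controls (SD; limma adjusted p = 0.399 and 0.745). The remaining FBXO genes tested were Fbxo3, Fbxo8, Fbxo11, Fbxo22, Fbxo25, Fbxo27, Fbxo31, Fbxo32 and Fbxo34, and the log2 changes of the FBXO genes that did not pass were -0.26 to 0.23. Of 5 FBXL genes tested among 8, none passed (limma, with or without the replicate block), where 4.94% of all tested genes did. By limma's unadjusted p under 0.05 there was 1 (20.0%, against 20.4% of all genes). Fbxl5, the iron-sensing receptor that targets iron regulatory proteins, had 351, 398, 391 and 412 after cadmium in rats 1 to 4, against 397, 536, 566 and 604 in their controls. The groups overlapped, since the control of rat 1 lay below the treated cultures of rats 2 and 4, and the log2 change of -0.42 ± 0.12 (SE; adjusted p = 0.0792) missed the threshold. Fbxl20, named for its high mean signal, averaged 671 ± 166 after cadmium and 647 ± 143 in controls (log2 change 0.052, adjusted p = 0.89), while a dimmer probe set of the gene fell (log2 change -0.69 ± 0.15, SE; adjusted p = 0.0345, and 0.0782 without the filter, where the call ended). Fbxl6, Fbxl14 and Fbxl19 had log2 changes of -0.40, -0.28 and -0.42.

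Of 34 genes of the USP family, 31 were tested, 1 rose and 1 fell (6.45%, against 4.94% of all tested genes). Uspl1 had signals of 2194, 3421, 1959 and 3052 after cadmium in rats 1 to 4, against 675, 704, 667 and 635 in their controls. The controls lay close together, and rats 2 and 4 reached higher levels after cadmium than rats 1 and 3, with no overlap between groups. The mean was 3.86-fold higher (log2 change 1.95 ± 0.14, SE; adjusted p = 0.000104), and the gene passed without any 1 rat (adjusted p up to 0.00213, without rat 2), without the replicate block (5.89e-05) and within each chip lot (0.0153 in rats 3 and 4, 4.47e-05 in rats 1 and 2). Usp40 had 629, 697, 562 and 648 after cadmium in rats 1 to 4, against 825, 887, 869.7 and 821 in their controls. Cadmium values were all below the controls (log2 change -0.43 ± 0.10, SE; adjusted p = 0.0479). The Usp40 call ended without the replicate block (adjusted p = 0.0517), after quantile normalization (0.0694) and median centring (0.0942), and without rat 1, 2 or 3 (0.143, 0.139 and 0.218).

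Named with Uspl1 for its high mean signal was Usp8, an endosomal deubiquitinase of growth factor receptors, at 1325 ± 114 after cadmium and 1539 ± 269 in controls (SD; limma adjusted p = 0.343). The USP genes that did not pass were Usp1, Usp3, Usp4, Usp5, Usp7, Usp8, Usp10, Usp11, Usp12, Usp15, Usp18, Usp19, Usp20, Usp21, Usp24, Usp28, Usp30, Usp32, Usp33, Usp34, Usp36, Usp37, Usp38, Usp39, Usp46, Usp47, Usp48, Usp54 and Usp9x, with log2 changes of -0.59 to 0.37. Usp18, which removes ISG15, had a log2 change of 0.37 ± 0.16 (SE; adjusted p = 0.242), and the ISG15 carrier Ube2l6 had a log2 change of -0.25 ± 0.14 (SE; adjusted p = 0.353). Other SUMO pathway genes near Uspl1 did not pass. Sumo2, Sumo3 and Sae1 had log2 changes of -0.054, -0.00468 and -0.078, and the SUMO protease genes Senp2, Senp3 and Senp6 had 0.11, -0.35 and -0.055 (adjusted p between 0.114 and 0.983). These genes were named after their values were seen.

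**Figure D2:**
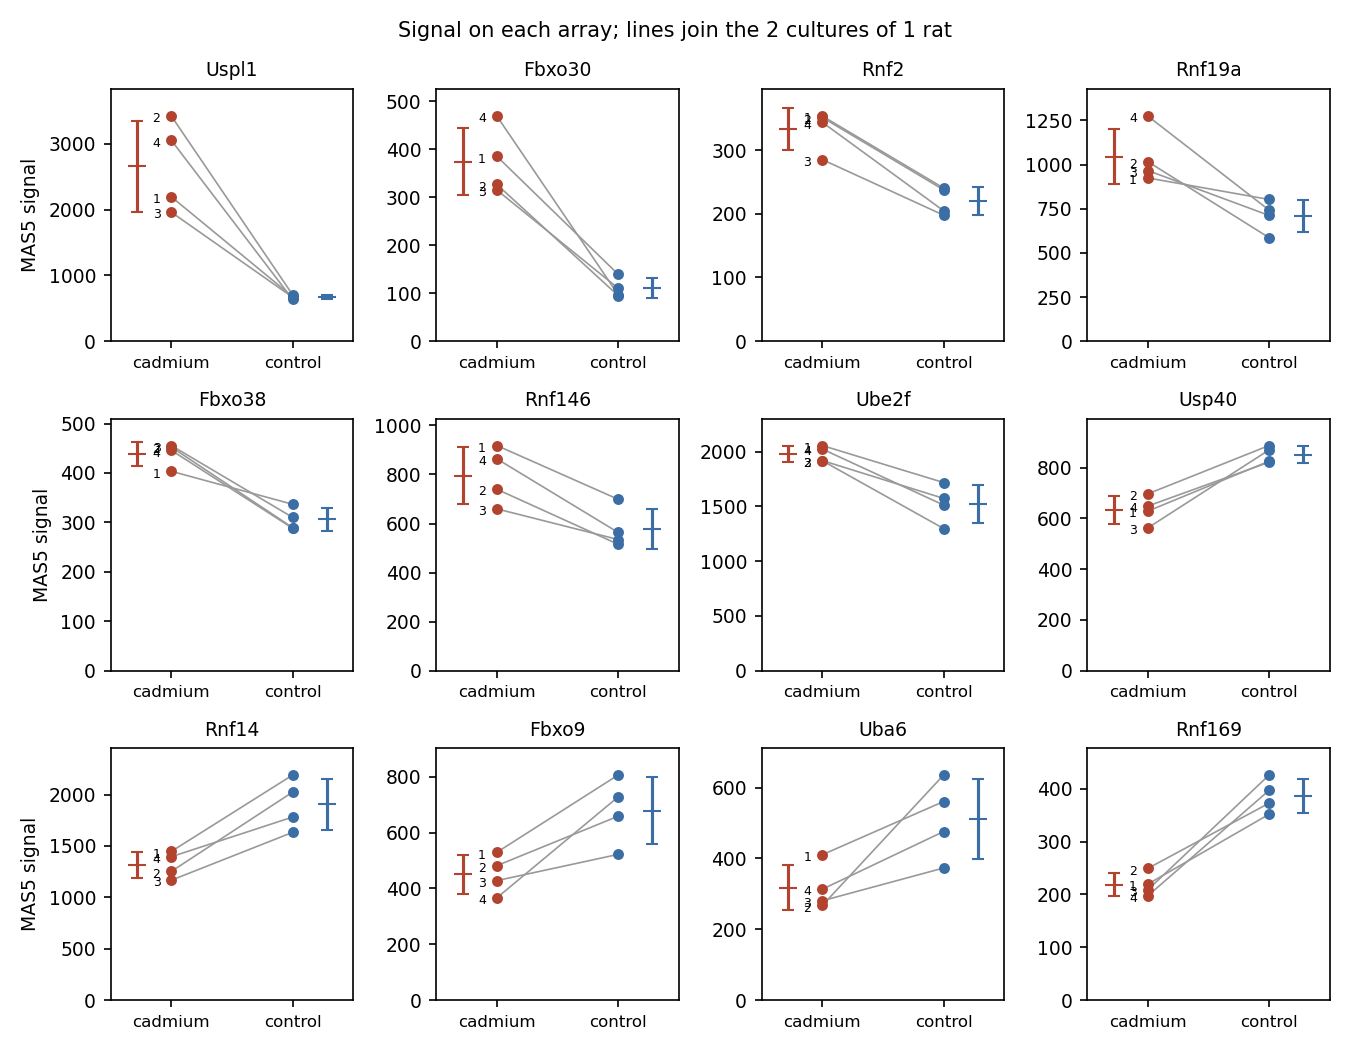
MAS5 signal of the 12 genes that passed, on each of the 8 arrays, cadmium on the left and control on the right, with grey lines joining the 2 cultures of 1 rat, rat numbers beside the cadmium points, and bars at the outer edges for the mean ± SD (n = 4 each). The 7 genes that rose come first, and the groups overlap only in Rnf146, Fbxo9 and Uba6.

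Each of the 12 genes kept its direction within both chip lots, which hold rats 3 and 4 (lot 1) and rats 1 and 2 (lot 2). Log2 changes in lots 1 and 2 were 1.91 and 1.99 for Uspl1, 1.88 and 1.62 for Fbxo30, and -1.02 and -0.63 for Rnf169. Without the filter on dim probe sets, 8 calls ended (Rnf2, Rnf19a, Fbxo38, Rnf146, Ube2f, Uba6, Fbxo9 and Usp40; adjusted p 0.0601 to 0.0923), and without a variance trend 8 ended (Rnf19a, Fbxo38, Rnf146, Ube2f, Uba6, Fbxo9, Rnf14 and Usp40; 0.0589 to 0.117). Uspl1 alone passed in all 14 settings it was fitted in, and Fbxo30 missed in 1 of 13, within lot 1 (adjusted p = 0.0569).

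**Figure D3:**
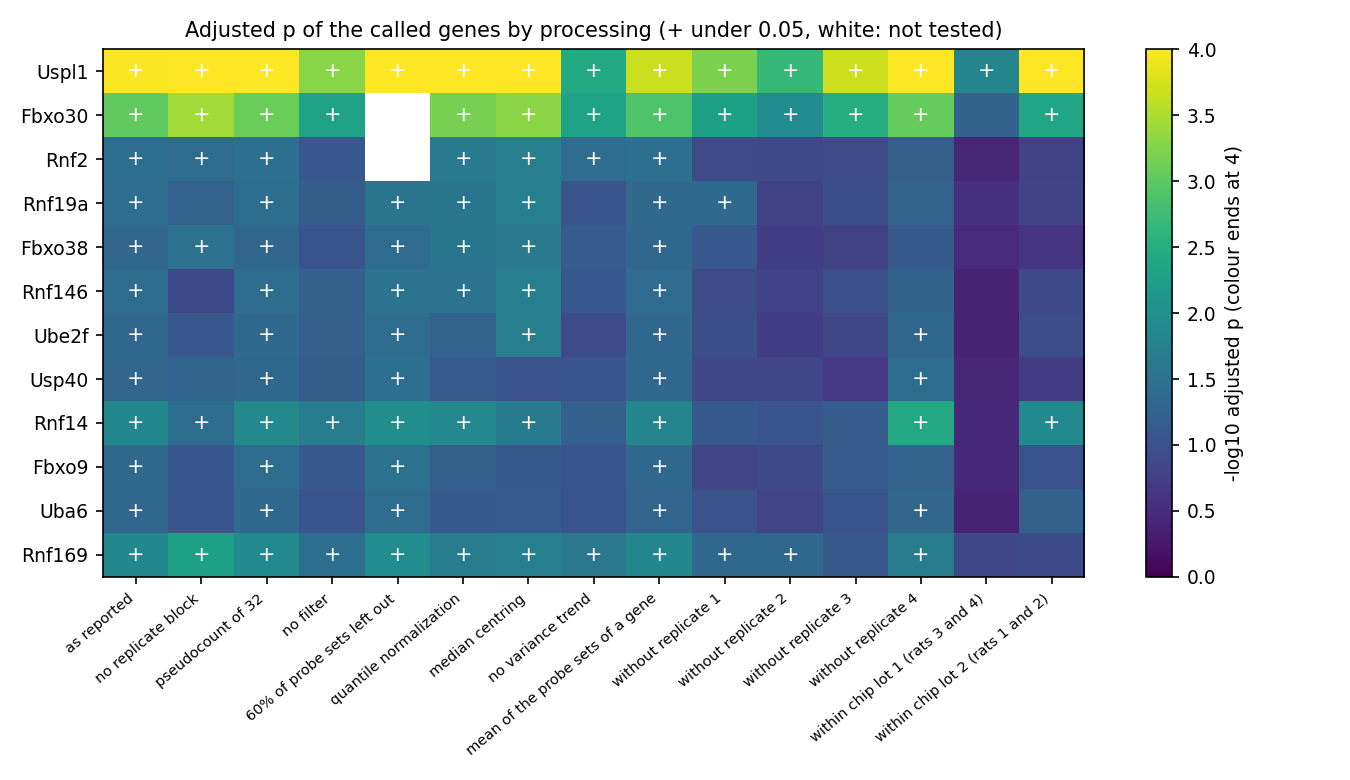
Adjusted p of the 12 genes (rows) as reported and under the alternative settings (columns), as colour on a -log10 scale that ends at 4; a plus marks values under 0.05 and white cells were not tested. Uspl1 has a plus in every column, Fbxo30 and Rnf169 in most, and within chip lot 1 only Uspl1 has one.

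The rats themselves were compared in the same fit, across both cultures of each animal. Each rat has its own scan day, and rats 1 and 2 differ in chip lot from rats 3 and 4. Animal, scan day and lot therefore cannot be told apart in this comparison. At limma's unadjusted p under 0.05 there were 10 members, and the share of all genes at that cutoff was not computed. By the moderated F statistic 0 of 133 members differed between rats at an adjusted p under 0.05, against 1.89% of all genes. The count was also 0 with another pseudocount, filter, scaling or variance model. The lowest adjusted p was 0.111, for Ube2v2, named after its value was seen. Its signals were 353, 349, 159 and 551 after cadmium in rats 1 to 4, against 386, 484, 278 and 463 in their controls. Both cultures of rat 3 were the lowest of their group.

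**Figure D4:**
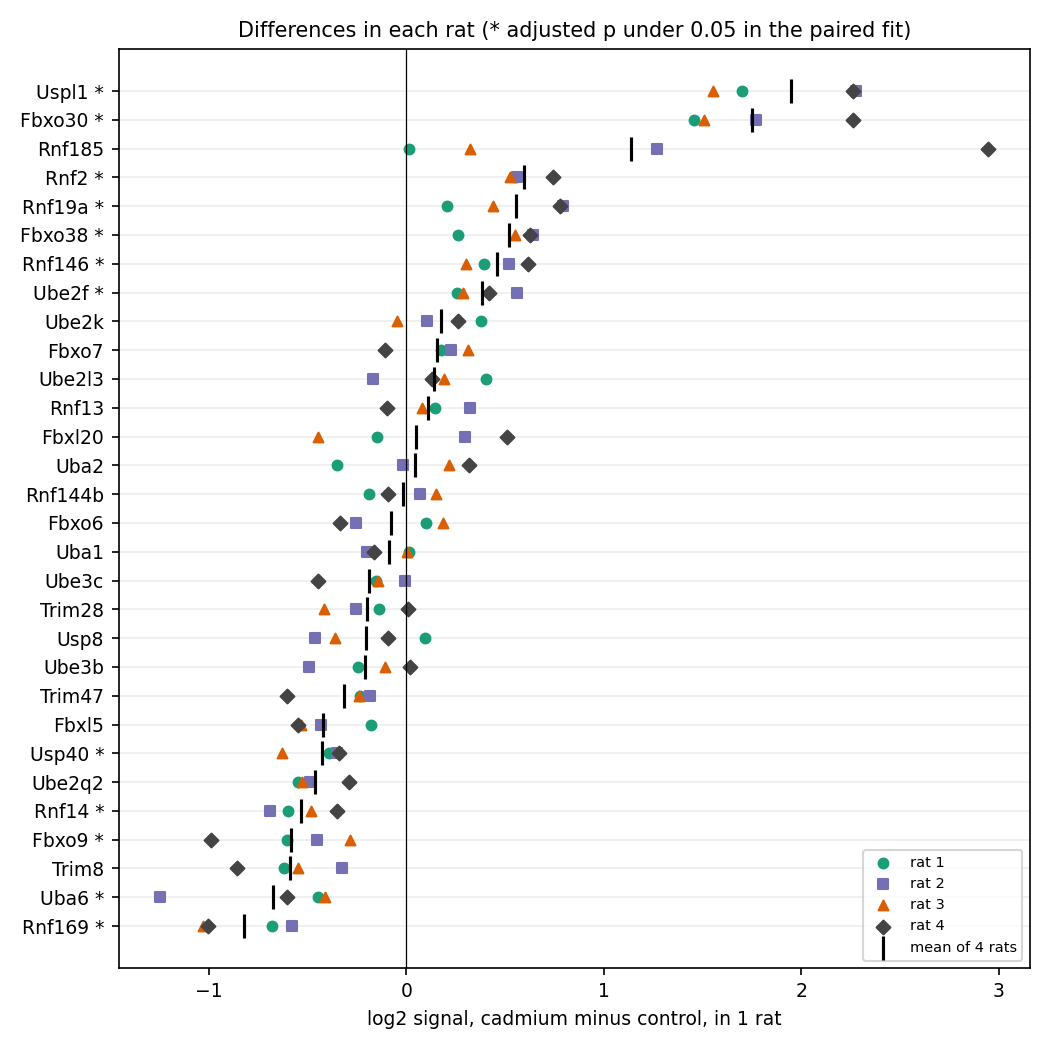
Log2 signal difference, cadmium minus control, in each of the 4 rats (symbols) and their mean (black bar) for the 30 named genes that were tested, ordered from the largest rise at the top; asterisks mark an adjusted p under 0.05. All 4 symbols lie on 1 side of 0 for each gene with an asterisk, while Rnf185 spreads from 0.013 in rat 1 to 2.95 in rat 4.

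The other 27 genes lay below the filter, with geometric mean signals between 9.49 and 98.2. Among them were the E2 genes Ube2t, Ube2d1 and Ube2d2b, the HECT ligase gene Ube3a, and the RNF genes Rnf112, Rnf122, Rnf126, Rnf182 and Rnf113a1. The TRIM genes were Trim9, Trim17, Trim29, Trim36, Trim54, Trim63, Trim66 and Trim72. The rest were the F-box genes Fbxo2, Fbxo16, Fbxo21, Fbxo39, Fbxl15, Fbxl22 and Fbxl17l1 and the USP genes Usp2, Usp25 and Usp42. Several of the genes below the filter are known from other tissues, such as Trim54, Trim63 and Trim72 of striated muscle. When all probe sets were tested, 0 of the 27 passed and 1 had an unadjusted p under 0.05. That gene was Ube2t, an E2 of the Fanconi anaemia pathway, with signals of 10.7, 7.90, 11.6 and 10.3 after cadmium in rats 1 to 4, against 49.4, 19.7, 28.1 and 58.5 in their controls. The groups did not overlap, but all 8 values are near the floor of the array (adjusted p = 0.108). At that level a small difference in signal gives a large log2 change. Usp14 was not analysed here.

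A list of 199 further ubiquitin genes outside these prefixes (ubiquitin-like modifiers, other E1 and E2 proteins, HECT, U-box and RING ligases, cullin complexes, the anaphase-promoting complex, other deubiquitinases, and p97 with its adaptors) served as a comparison. Of the 141 named on the array 130 were tested, and 4 rose and 2 fell (4.62%, against 4.94% of all genes), with a median log2 change of -0.055. The largest rise was in Marchf7, a membrane RING ligase gene, with signals of 2422, 1579, 1698 and 1408 after cadmium in rats 1 to 4, against 1486, 863, 1103 and 771 in their controls. Each rat rose by a similar amount, but its rats differed in level, so the groups overlapped (log2 change 0.77 ± 0.09, SE; adjusted p = 0.00184), and the call ended without the replicate block (adjusted p = 0.0947). Rlim, a RING ligase of LIM-domain cofactors, rose by 0.67 ± 0.11 (adjusted p = 0.0116), Birc3, the inhibitor of apoptosis cIAP2, by 0.59 ± 0.11 (0.0235), and Ubxn4, an endoplasmic reticulum adaptor of p97, by 0.40 ± 0.08 (0.0233). Cdc23, a subunit of the anaphase-promoting complex, changed by -0.77 ± 0.15 (limma adjusted p = 0.0253) and Syvn1, the ERAD ligase HRD1, by -0.70 ± 0.14 (0.025). No cullin, COP9 signalosome, HECT or other deubiquitinase gene of the list passed in this fit.

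Of the 6 calls, those of Birc3, Ubxn4, Cdc23 and Syvn1 ended without rat 1, 2 or 3 and that of Rlim without rat 2 or 3. The adjusted p without rats 1 to 4 was 0.0918, 0.107, 0.125 and 0.00764 for Birc3, 0.0724, 0.0984, 0.0982 and 0.0166 for Ubxn4, 0.105, 0.117, 0.0706 and 0.0204 for Cdc23, 0.0532, 0.0984, 0.088 and 0.0351 for Syvn1 and 0.0137, 0.0723, 0.0679 and 0.0126 for Rlim. Without the replicate block it was 0.0904 for Birc3 and 0.0596 for Syvn1.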

How the data were processed

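RNA of 8 primary hepatocyte cultures was hybridised to Affymetrix RAE230A arrays. The deposited values are probe set intensities on a linear scale, made by the authors with MAS5 per the submitters' processing notes; no version or scaling target is stated for it in the sources used, and the mean of each array without its lowest and highest 2% is near 500. The arrays' run settings, per the file headers of the deposited instrument files, gave the other values used, chip lot, fluidics module and shared scan day. Each scan day holds both arrays of 1 rat, so the rat block also takes up the scan day.

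Probe sets were named through the platform annotation: 12783 had 1 symbol, 312 several and 2771 none, and the 57 control probe sets were left out. Values were tested as log2(signal + 1) with limma 3.58.1 in R 4.3.3 (lmFit and eBayes with a variance trend, rat as a block, two-sided), for probe sets above the dimmest 40% by mean log2 signal. Every adjusted p is limma's, with Benjamini-Hochberg adjustment over the 9519 probe sets tested as reported, and over the features of its own fit under another setting. The fits were tested on simulated data. Both cultures of a number come from 1 rat per the labels, and their deviations from the group means correlated by 0.196 to 0.475, against at most -0.00828 between different rats. Deviations from a group mean cancel out within the group, which pushes the correlations between different rats down, so these are no independent baseline. Rat and scan day cannot be told apart in these correlations. The treatment p-values of the fit with the rat block set the mean cadmium minus control difference against its variation over these 4 rats. The block takes out differences in level between rats. That variation is moderated, since limma draws the variance of each probe set toward a trend over all probe sets tested.

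Genes were named in the text if they passed (up to 15 in each direction), if they were among the 2 of highest mean signal in their family or had its largest rise or fall shared by 4 of 4 rats, and, for the comparison list, if they passed; Uba1 and the response genes were named in any case, and other names are marked where they stand. The members, lists and tests were chosen with earlier results of these data known. Other settings were another pseudocount, filter, scaling, variance model, probe set rule, threshold, fold minimum and prefix reading, no replicate block, each rat left out and each chip lot alone. Fold changes of dim genes are understated by the pseudocount.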

Additional observations from a re-analysis of the deposited data

Results flagged for a closer look

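In 4 of the 78 groups of 4 cultures examined, 1 culture lay far from the other 3, with a gap to its nearest neighbour above Dixon's 95% critical value, as a share of the group's range of log2(signal + 1); chance gives such a gap in about 5% of groups. The cadmium culture of rat 3 had the lowest Rnf2 signal after cadmium, 285, with a gap of 0.869 of the range on that log2 scale. For Ube2l3 the control of rat 2 was the highest, at 3879.5 (0.915 of the range). For Trim47 the control of rat 1 was the lowest, at 1272 (0.903), and for Rlim the control of rat 1 was the highest, at 924 (0.842).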

How the results depend on the processing

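All 12 called members kept their direction under every alternative in which they were fitted, but most calls lie near the threshold and the counts moved. Of the 133 members (7 higher, 5 lower as reported), 4 rose and 2 fell without the replicate block, and 3 rose and 1 fell without a variance trend. Within chip lot 1, 1 rose and 0 fell, and within lot 2, 3 rose and 1 fell. With a 1.5-fold minimum 3 rose and 2 fell. Without the filter, where all 160 members were fitted, 2 rose and 2 fell. Falls came to 2 after quantile normalization, 2 after median centring and 8 at a threshold of 0.1. Leaving out each rat in turn gave 2 to 3 rises and 0 to 5 falls. Over all genes (194 higher, 157 lower), there were 93 falls without the block, 84 without the filter, 82 after median centring, 80 within lot 2, 336 at 0.1 and 90 with a 1.5-fold minimum. Without a variance trend 107 rose and 72 fell, within lot 1 54 rose and 3 fell, and without each rat 84 to 225 rose and 26 to 203 fell. For the comparison list (4 higher, 2 lower), 2 rose and 2 fell without the block, 2 rose and 2 fell without a variance trend, 0 rose and 0 fell within lot 1 and 1 rose and 1 fell within lot 2. Its falls came to 0 without the filter, 1 with 60% of probe sets left out, 1 with probe sets averaged by gene and 8 at 0.1, and without each rat 1 to 4 rose and 0 to 5 fell. The median log2 change of the members was -0.0384 after quantile normalization and 0.00534, thus above 0, after median centring, where that of all tested genes was 0.018; without each rat it was -0.0846 to -0.0449. The named genes gave 449 comparisons with an unchanged call, 115 that lost it, 3 that gained it (Ube2q2, Trim8 and Fbxl5 at 0.1) and 13 that changed sign, all for the following 5 genes. Uba2 was -0.182 within lot 2 and -0.0495 to 0.173 without each rat in turn. Rnf13 was -0.00940 within lot 1. Rnf144b was 0.0642 after median centring, 0.0297 within lot 1 and -0.0697 to 0.0436 without each rat. Fbxo6 was 0.00286 after median centring and -0.163 to 0.0105 without each rat. Fbxl20 was -0.263 when its probe sets were averaged and -0.100 to 0.219 without each rat. The cause of these shifts was not tested. Fewer samples enter the settings that leave out a rat or keep 1 chip lot, and more probe sets are adjusted for without the filter. The number of arrays, 4 a group, limits the precision, and dim probe sets are limited by their signal over background.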

Other observations

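Of the 23 member genes with several tested probe sets, 14 had the same sign of log2 change on all of them and 9 did not. The exceptions were Fbxl20, Fbxo3, Rnf123, Rnf187, Trim2, Ube2h, Ube2k, Usp48 and Usp9x. Among the probe sets that were not the brightest of their gene, 1 passed, a dimmer one of Fbxl20, an F-box gene, with signals of 209.8, 220.3, 228 and 179 after cadmium in rats 1 to 4, against 288, 321, 383 and 359.7 in their controls. Those groups did not overlap (limma adjusted p = 0.0345, and 0.0782 without the filter, where the call ended), whereas the brightest probe set of the gene had a log2 change of 0.052. For Ube2h, an E2 gene, the brighter probe set had a log2 change of -0.035 and the dimmer one of 0.39, with signals of 622, 546, 653 and 737 after cadmium and 539, 479.7, 471 and 456 in controls (limma adjusted p = 0.114). Which transcripts these probe sets read was not analysed here.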
